A study of Mus musculus with 7 samples.

Results

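DNA replication genes were followed across 7 arrays of mouse tissue, over both Iqgap1 genotypes and both days of topical treatment. The 41 genes were a fixed list of replication proteins and of the enzymes and regulators that serve them. Each was read from the probe set that named it alone and had the highest mean over the arrays, and 41 of 41 were measured among 19937 genes. Iqgap1 is a scaffold that holds Raf, MEK and ERK kinases near each other, and the series is titled for interfering with this in tumours driven by Ras. All mice were of mixed C57BL/6 and 129 background and are labelled with topical 4OHT (4-hydroxytamoxifen, a drug used to switch on tamoxifen-dependent proteins), the day 0 mice included. The labels name no inducible protein, no age and no tissue beyond mouse tissue. The groups were Iqgap1 knockout at day 0 (2 arrays), wild type at day 0 (1 array), knockout at day 6 (2 arrays) and wild type at day 6 (2 arrays). Nothing states that the replicates came from separate animals. Readings of X- and Y-linked genes, given below, part the 2 wild-type day 6 arrays, so these are not repeats of 1 sample. For the knockout pairs, the array-to-array spread behind the p-values may be only technical. Values are log2 expression on Affymetrix arrays, and a difference of 1 is a doubling.

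A cell copies its genome once per division. In G1 the origin recognition complex (Orc proteins), Cdc6 and Cdt1 load the ring-shaped Mcm2-7 helicase onto origins, a step called licensing. At the start of S phase, the kinase Cdk2 with its partner cyclin E, together with the Cdc7 kinase, prompts the recruitment of Cdc45 and the GINS complex, and with Mcm10 this turns the loaded rings into active helicases. Primase and DNA polymerases then copy both strands, held in place by the Pcna clamp that the Rfc complex loads, while Fen1 and Lig1 join the pieces of the lagging strand. E2F transcription factors switch on many of these genes before S phase, and in skin the dividing cells that use them lie mainly in the basal epidermis and in the matrix of growing hair follicles.

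Promoters are shown because most of these genes rose together in the knockout, and the E2F-type motif, found in part of them, was not used to choose the list. Promoter windows of 300 bases, from 250 before the start of transcription to 50 from it on, were taken from RefSeq on GRCm38.p6 and held 34 of the 41 genes in 40 windows. Rfc2, Mcm4, Pole, Gins2, Prim2, Ccne2 and Gins1 had no entry. Both strands were searched for the E2F-type forms TTTCCCGC, TTTGGCGC, TTTCGCGC and TTTGCCGC. At least 1 form stood in 15 of the 40 windows (37.5%), against 2.26% of 32851 windows of the same length. The box CCAAT stood in 57.5% of the windows and in 37.4% of all, and TTTGAA, part of the CHR element of mitotic promoters, in 12.5% and 17.9%. A match is a run of letters and not a shown binding site. The stretches below lie upstream of the start on the gene's own strand, with the E2F-type matches in capitals. They were chosen to show helicase subunits, origin licensing proteins and a clamp loader subunit beside Uhrf1, and matches overlap in Mcm5 and in the first capitals of Mcm6.
Mcm5 (chr8:75109326-75109397, plus strand): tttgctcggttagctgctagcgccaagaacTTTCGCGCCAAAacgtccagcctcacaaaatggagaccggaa
Mcm6 (chr1:128359715-128359845, minus strand): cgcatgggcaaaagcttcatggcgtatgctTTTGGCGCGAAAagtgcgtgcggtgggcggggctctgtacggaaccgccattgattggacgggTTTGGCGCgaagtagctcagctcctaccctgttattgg
Mcm7 (chr5:138172011-138172078, minus strand): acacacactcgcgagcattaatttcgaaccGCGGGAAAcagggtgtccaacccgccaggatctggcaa
Orc1 (chr4:108579397-108579453, plus strand): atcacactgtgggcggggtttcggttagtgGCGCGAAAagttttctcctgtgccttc
Cdc6 (chr11:98907983-98908050, plus strand): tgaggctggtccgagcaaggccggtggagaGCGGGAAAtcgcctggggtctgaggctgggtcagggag
Rfc3 (chr5:151651209-151651248, minus strand): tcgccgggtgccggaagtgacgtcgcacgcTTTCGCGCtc
Uhrf1 (chr17:56304098-56304165, plus strand): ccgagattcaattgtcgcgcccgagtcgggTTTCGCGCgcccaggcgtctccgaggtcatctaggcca
The median day change in knockout was 1.26 for the 15 genes with such a form, 1.55 for the 19 without one and 1.48 for the 7 with no entry, on the log2 scale.

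Iqgap1 itself read 9.02 and 8.99 in the knockout day 0 arrays, 8.58 and 8.67 in the knockout day 6 arrays, 9.94 in the wild-type day 0 array, and 10.11 and 10.59 in the wild-type day 6 arrays, so every knockout array was below every wild-type array. The 14 measured epidermal keratinocyte genes averaged 10.95 in the wild-type day 0 array and 11.49 to 11.97 in the other 6 arrays. Xist, an RNA of the inactive X chromosome, read 11.15 in the wild-type day 0 array and 10.30 in wild-type day 6 replicate 1, and 3.55 to 4.03 in the other 5, while the Y-linked Kdm5d, Eif2s3y and Uty were low in the first pair and high in the rest. The wild-type day 0 array also stood apart in hair genes. The 21 measured hair matrix and shaft genes averaged 10.96 there and 5.62 to 6.57 in the other 6 arrays, and 20 of the 21 (all but Gata3) were highest in that array. Of 14 epidermal keratinocyte genes, 10 were lowest in it. Each result that rests on this array is therefore a comparison with 1 library that differs in these ways, and the part of the hair genes, of the Xist split or of that library in it was not tested.

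**Figure D1:**
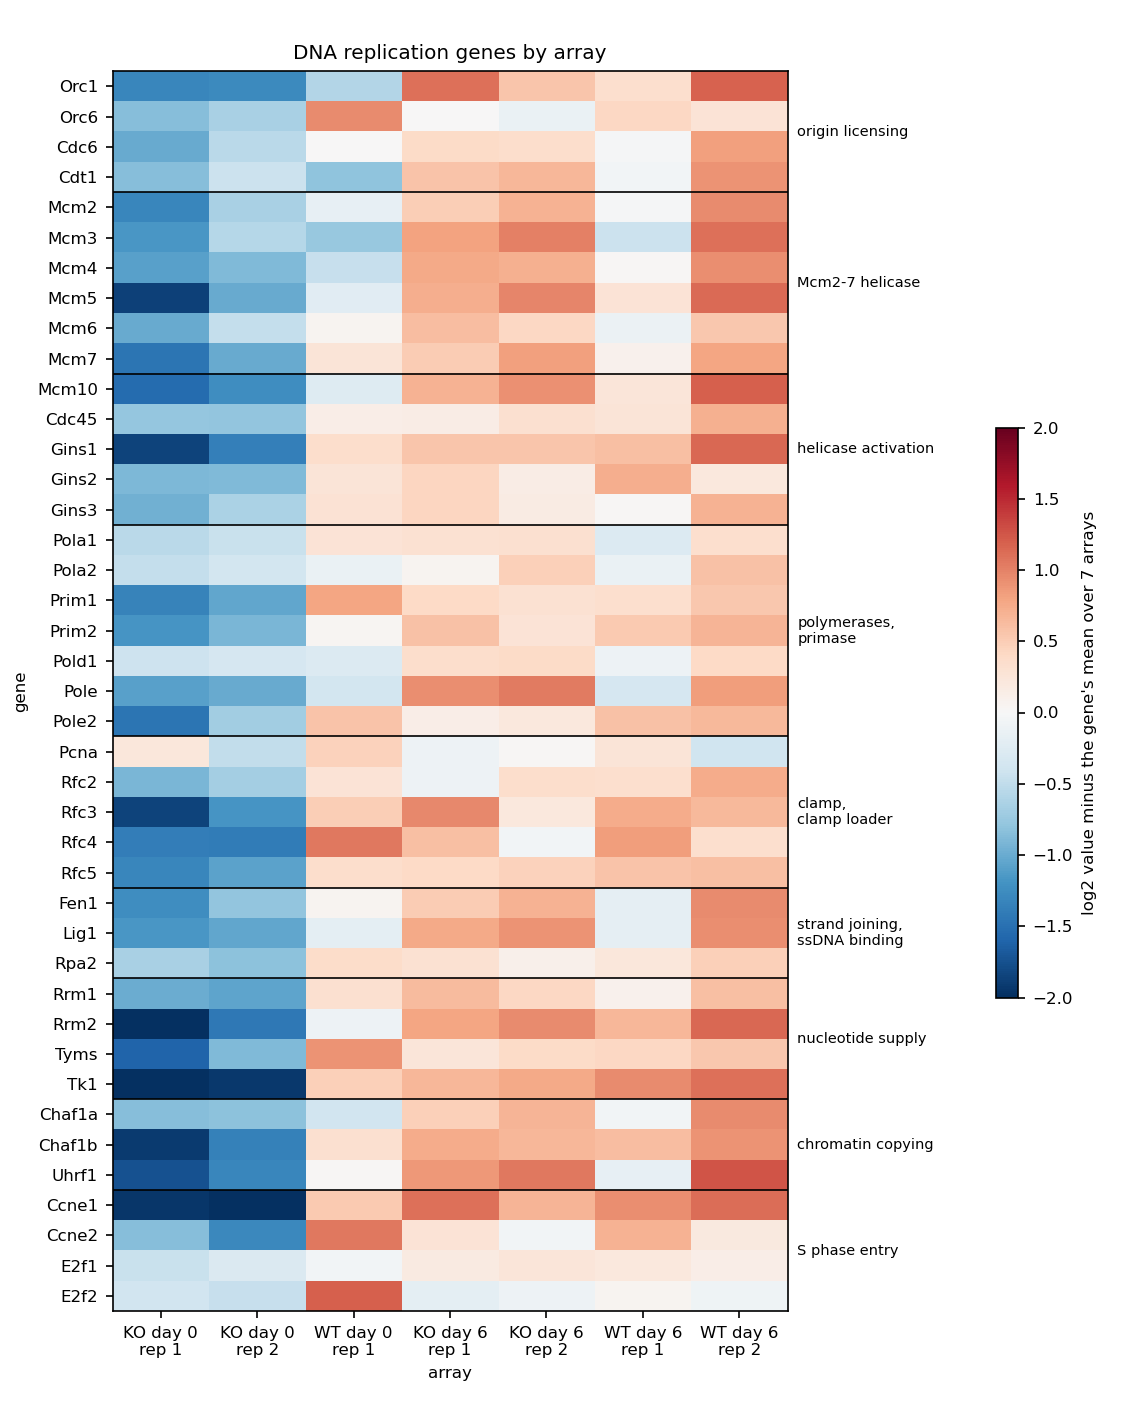
Log2 value minus the gene's own mean over the 7 arrays (colour, from -2 to 2) for each of the 41 genes (rows, grouped by role) in each array (columns; KO, Iqgap1 knockout; WT, wild type; rep, replicate). Both knockout day 0 columns are low for nearly every gene, the wild-type day 0 column is mixed, and Pcna and E2f2 depart from the common pattern.

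In the knockout, replication genes were higher at day 6 than at day 0 almost throughout. With limma's moderated test and Benjamini-Hochberg adjustment, 37 of the 41 genes rose and 0 fell, where 7.24% of all 19937 genes rose and 9.07% fell. The median difference of the 41 genes was 1.54 on the log2 scale, and that of all genes was 0.095. Both knockout day 6 arrays lay above both knockout day 0 arrays for 40 of the 41 genes, Pcna being the exception, and for 42.2% of all genes. The mean of the 41 genes was 6.74 and 6.98 in the day 0 arrays and 8.39 and 8.38 in the day 6 arrays.

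Leaving out 1 knockout array lowered the number of calls over all genes. The median difference of the 41 genes was then between 1.39 and 1.66. The number of the 41 genes called depended on having both arrays of each day. It was 17 without knockout day 0 replicate 1, 23 without replicate 2, 16 without knockout day 6 replicate 1 and 20 without replicate 2, where the lone array left is assumed to vary like the other groups. It was 37 again without the wild-type day 0 array, which takes no part in this difference.

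Marker genes of some other cell types differed between the same arrays, where 7.24% of all genes rose and 9.07% fell. Of 8 fat cell genes 5 fell in the knockout, as did 9 of 10 skeletal muscle genes and 5 of 9 fibroblast genes, with median differences of -4.01, -2.20 and -1.83. The muscle genes averaged 11.87 to 12.15 in the knockout day 0 arrays, 9.09 to 9.65 in the knockout day 6 arrays, 10.85 in the wild-type day 0 array and 8.47 to 9.42 in the wild-type day 6 arrays. The fat cell genes averaged 10.10 to 10.57, 6.61 to 7.68, 9.74 and 6.94 to 7.47 in the same order. Fibroblast genes averaged 11.55 to 11.64, 9.70 to 10.49, 10.28 and 9.30 to 10.04. Of 14 epidermal keratinocyte genes 1 rose and 0 fell, and their mean was 11.77 to 11.89 at day 0 and 11.89 to 11.97 at day 6 in knockout. Among 8 hair follicle stem cell genes 4 fell, and of 21 hair matrix and shaft genes 2 rose. The rises among keratinocyte and hair matrix and shaft genes were near the share over all genes, so they say little about these lists. Of 7 endothelial genes 1 rose and 0 fell, though their median difference was -0.43 and 4 had an unadjusted p under 0.05. Of 6 T cell genes 2 fell. None of 5 B cell, 6 macrophage, 8 neutrophil and 3 erythroid genes passed limma's adjusted threshold. An unadjusted p under 0.05 was found for 1 of the macrophage genes and 0 of the others, beside 5713 of all 19937 genes. In bulk tissue, fewer cells of a type and less RNA per cell cannot be told apart, and the part of these shifts in the replication gene result was not tested.

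All 4 licensing genes rose in the knockout. Orc1, the largest subunit of the origin recognition complex, read 4.64 and 4.67 in the knockout day 0 arrays, 5.36 in the wild-type day 0 array, 7.05 and 6.50 in the knockout day 6 arrays, and 6.29 and 7.13 in the wild-type day 6 arrays. All 4 day 6 arrays lay above the 3 day 0 arrays. Its knockout day change was 2.11 ± 0.31 (SE, 2 arrays against 2; limma adjusted p = 0.00545), a 4.33-fold rise. The day 0 values of Orc1 were below the medians of all probe sets in their arrays (5.63 to 5.79), and RMA compresses low values. Cdt1, which delivers the helicase to the origin, rose by 1.25 (adjusted p = 0.0411) and Cdc6, the loading ATPase, by 1.14 (adjusted p = 0.0451). Orc6, another subunit of the origin complex, rose by 0.68 (adjusted p = 0.0345).

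The 6 subunits of the Mcm2-7 ring rose together, by 1.26 (Mcm6) to 2.28 (Mcm5), with a median of 1.75. Mcm5 read 7.22 and 8.08 in the knockout day 0 arrays, 8.85 in the wild-type day 0 array, 9.80 and 10.05 in the knockout day 6 arrays, and 9.35 and 10.21 in the wild-type day 6 arrays. Its 2 knockout day 0 values were 0.86 apart, yet the day 6 values cleared both. The change was 2.28 ± 0.37 (SE; adjusted p = 0.00799). Mcm7 rose by 1.90, Mcm3 by 1.78, Mcm4 by 1.71 and Mcm2 by 1.57, with adjusted p between 0.00569 and 0.0458.

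The 5 genes that turn the ring into a working helicase also rose. Gins1, a subunit of the GINS complex, went from 4.78 and 5.26 to 7.17 and 7.18 in knockout, and read 6.97 in the wild-type day 0 array and 7.23 and 7.77 in the wild-type day 6 arrays. The wild-type day 0 value was thus close to the lower wild-type day 6 value and well above both knockout day 0 values. In knockout the change was 2.16 ± 0.24 (SE; adjusted p = 0.00224). Mcm10, a scaffold for helicase activation, rose by 2.19 ± 0.31 (adjusted p = 0.00499), from 5.15 and 5.45 to 7.39 and 7.60. The knockout day 0 values of Gins1 and Mcm10 were below the probe set medians of their arrays, 5.67 and 5.63. Gins2, Gins3 and Cdc45, the partner that completes the helicase, rose by 1.18, 1.09 and 1.01.

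Of 7 polymerase and primase genes 5 rose in the knockout. Pole, the catalytic subunit of the leading-strand polymerase, read 6.04 and 6.12 at day 0 and 8.06 and 8.18 at day 6 in knockout. The wild-type arrays read 6.77 at day 0 and 6.79 and 7.97 at day 6, so wild-type day 6 replicate 1 stayed near the day 0 value and replicate 2 lay with the knockout. The knockout change was 2.04 ± 0.35 (SE; adjusted p = 0.0104). Both primase subunits rose, Prim1 by 1.53 and Prim2 by 1.48. Pole2, a further subunit of polymerase epsilon, rose by 1.25 and Pold1, the catalytic subunit of polymerase delta, by 0.74 (adjusted p = 0.0492). The polymerase alpha genes missed the threshold: Pola1 differed by 0.81 (adjusted p = 0.0524) and Pola2 by 0.69 (adjusted p = 0.150).

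The clamp loader rose but the clamp gene did not pass the test. Rfc3, Rfc4, Rfc5 and Rfc2, subunits of the complex that opens the clamp and sets it on DNA, rose by 2.10, 1.67, 1.62 and 0.92. Pcna read 11.40 and 10.69 at day 0 and 11.07 and 11.20 at day 6 in knockout, 11.63 in the wild-type day 0 array, and 11.44 and 10.78 in the wild-type day 6 arrays. The day 0 values of knockout bracketed those of day 6, and the difference was 0.090 (95% interval -0.63 to 0.81; adjusted p = 0.878). A second Pcna probe set read 10.98 and 10.81 at day 0 and 10.95 and 10.75 at day 6 in knockout, again overlapping. Fen1, the flap nuclease, rose by 1.61, Lig1, the ligase that seals lagging-strand pieces, by 1.93, and Rpa2, a subunit of the single-strand binding protein, by 0.94.

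Nucleotide supply genes showed some of the largest changes. Tk1, the thymidine kinase of S phase, read 5.95 and 6.04 in the knockout day 0 arrays, 8.45 in the wild-type day 0 array, 8.64 and 8.74 in the knockout day 6 arrays, and 8.91 and 9.08 in the wild-type day 6 arrays. Only the knockout day 0 arrays were low. The knockout change was 2.70 ± 0.16 (SE), a 6.48-fold rise, and had the smallest adjusted p of the 41 genes (0.000388). The other Tk1 probe set gave 6.17 and 6.09 at day 0 and 8.52 and 8.82 at day 6 in knockout. Rrm2, the regulatory subunit of ribonucleotide reductase, rose by 2.58 ± 0.25 (adjusted p = 0.00142), from 7.61 and 8.19 to 10.40 and 10.55. Its catalytic partner Rrm1 and Tyms, thymidylate synthase, rose by 1.54 and 1.55.

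The 3 chromatin genes rose as well. Chaf1b, a subunit of the CAF-1 complex that places histones behind the fork, went from 6.32 and 6.88 to 8.97 and 8.90 in knockout, a change of 2.34 ± 0.22 (SE; adjusted p = 0.00126). Uhrf1, which brings the maintenance methyltransferase to newly copied DNA, read 5.63 and 6.06 at day 0 and 8.24 and 8.42 at day 6 in knockout. Its wild-type values were 7.38 at day 0 and 7.21 and 8.63 at day 6, so the wild-type day 6 arrays lay on either side of the day 0 array. In knockout Uhrf1 rose by 2.48 ± 0.43 (adjusted p = 0.0103), and Chaf1a, the large CAF-1 subunit, by 1.41.

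Among regulators of S phase entry, Ccne1, which encodes cyclin E1, had the largest knockout change of the 41 genes. It read 6.26 and 5.81 at day 0 and 9.31 and 8.88 at day 6 in knockout, 8.73 in the wild-type day 0 array, and 9.13 and 9.31 in the wild-type day 6 arrays. As with Tk1, only the knockout day 0 arrays were low. The change was 3.06 ± 0.23 (SE; adjusted p = 0.000568), an 8.34-fold rise. Ccne2, cyclin E2, rose by 1.18 and the activator E2f1 by 0.58, while E2f2, another activator of the family, differed by 0.27 (adjusted p = 0.308).

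**Figure D2:**
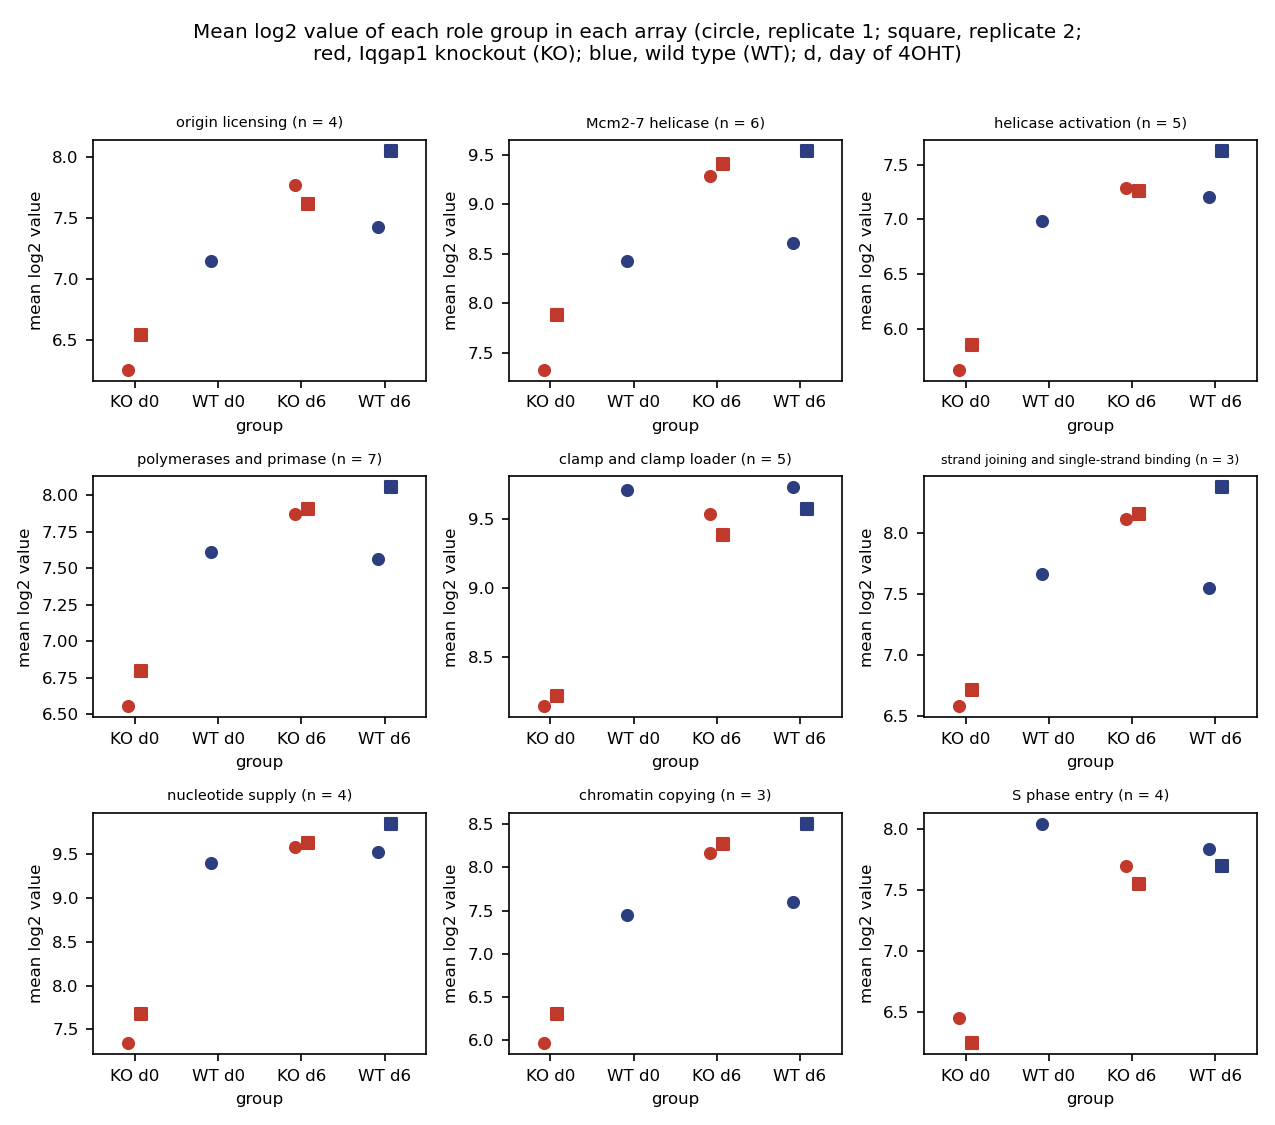
Mean log2 value (vertical axis) of each of the 9 role groups in each array, by group on the horizontal axis; circles are replicate 1 and squares replicate 2, red knockout and blue wild type, and the axes differ between panels and do not start at 0. Knockout day 0 points are lowest in every panel, and the wild-type day 0 point is above all 4 day 6 points only for S phase entry, at 8.04.

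In the wild type, the same day comparison called 1 of the 41 genes, and it fell. E2f2 read 7.69 in the wild-type day 0 array, 6.55 and 6.41 in the wild-type day 6 arrays, and 6.03 to 6.38 in the 4 knockout arrays, so the wild-type day 0 array alone was high. Its difference was -1.21 ± 0.19 (SE, 2 arrays against 1; limma adjusted p = 0.0133). In this comparison 3.51% of all genes rose and 3.61% fell. After it, the smallest p belonged to Orc1, with a difference of 1.35 (adjusted p = 0.0903), and Rrm2, with 1.01 (adjusted p = 0.118). The median difference of the 41 genes was 0.35 and that of all genes 0.0035. An unadjusted p under 0.05 was found for 9 of the 41 and for 4064 of all 19937 genes. The 9 are thus near the share over all genes.

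The wild-type day 6 arrays lay above the day 0 array for 23 of the 41 genes and for 33.7% of all genes. These 2 arrays differed from each other. Replicate 2 was the higher for 33 of the 41 genes, with a median excess of 0.49, where the median over all genes was -0.086. In the knockout day 0 pair replicate 2 was also the higher for 33 of the 41, by a smaller median of 0.23 (0.022 over all genes), and in the knockout day 6 pair for 25, by 0.063. Replicate 1 was below the other 3 day 6 arrays for 22 of the 41 genes and 29.3% of all genes, and replicate 2 was above the other 3 for 29 of the 41 and 14.8% of all genes. Mcm3 showed the spread, with 7.40 in replicate 1 and 8.92 in replicate 2, beside 8.63 and 8.84 in the knockout day 6 arrays. Without replicate 1, the Xist array, the median difference of the 41 genes was 0.57. Without replicate 2, which leaves the 2 wild-type arrays with Xist signal, that median was 0.056. Each of these sets 1 array against 1. Hair matrix and shaft genes moved with this comparison, 18 of 21 falling by a list median of -5.52, and 5 of 14 epidermal keratinocyte genes rose. Of 10 skeletal muscle genes 6 fell (list median -1.33), as did 4 of 8 fat cell genes (-2.68) and 1 of 9 fibroblast genes (-0.56). The part of these lists in the wild-type result was not tested.

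**Figure D3:**
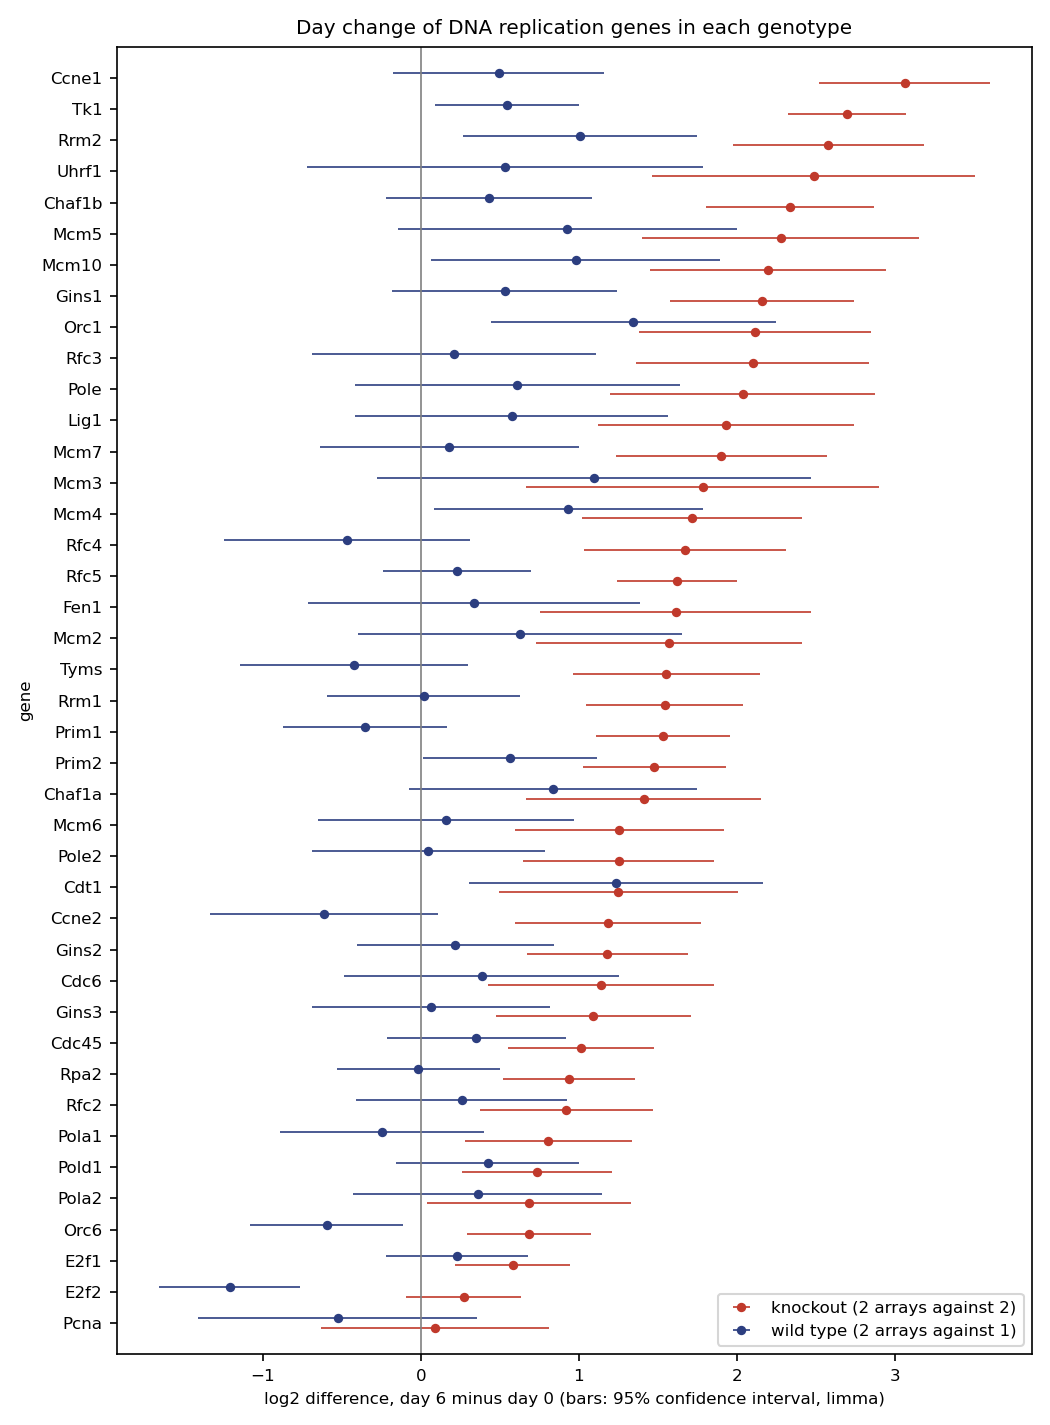
Log2 difference between day 6 and day 0 (horizontal axis) with limma's 95% confidence interval (bars) for each of the 41 genes (vertical axis, ordered by the knockout difference), in knockout (red, 2 arrays against 2) and wild type (blue, 2 arrays against 1). Knockout points run from 0.090 (Pcna) to 3.06 (Ccne1), and wild-type points from -1.21 (E2f2) to 1.35 (Orc1).

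The difference between the genotypes in the day change was tested directly as the knockout change minus the wild-type change. It was above 0 past the threshold for 6 of the 41 genes and below 0 for 0, against 1.76% of all genes above and 1.35% below. The median was 1.21 for the 41 genes and 0.061 for all genes. An unadjusted p under 0.05 was found for 26 of the 41 and for 3459 of all 19937 genes. Tk1 differed by 2.15 ± 0.25 (SE; limma adjusted p = 0.00929), Ccne1 by 2.57 ± 0.36 (adjusted p = 0.0190) and Prim1, the catalytic primase subunit, by 1.89 ± 0.28 (adjusted p = 0.0230). Prim1 read 5.84 and 6.13 in the knockout day 0 arrays, 7.96 in the wild-type day 0 array, 7.56 and 7.47 in the knockout day 6 arrays, and 7.51 and 7.71 in the wild-type day 6 arrays. Its wild-type day 0 value was the highest of the 7. The other 3 genes were E2f2, Rfc5 and Chaf1b. Cdt1 had the smallest difference, 0.017 (95% interval -1.18 to 1.22), with 7.35 and 7.77 in the knockout day 0 arrays, 7.39 in the wild-type day 0 array, and 8.14 to 9.10 at day 6.

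All of this test's contrast with wild type passes through the single wild-type day 0 array. The count was 2 without knockout day 0 replicate 1, 0 without knockout day 6 replicate 1, 2 without knockout day 6 replicate 2 and 11 without wild-type day 6 replicate 2. Calls over all genes fell as well when 1 knockout array was left out. With all arrays, 17 of the 21 hair matrix and shaft genes differed upwards in the same test, with a list median of 5.69.

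At day 6 no replication gene passed the test between the genotypes. The counts were 0 higher and 0 lower of 41 by limma, and over all genes 0% were called higher and 0% lower. Iqgap1 itself differed by -1.73 and was not called (limma adjusted p = 0.503). At an unadjusted p under 0.05 there were 1 of the 41 genes and 1182 of all genes. The 41 differences, knockout minus wild type, ran from -0.44 (Pole2) to 0.74 (Pole), with a median of -0.027. Orc6 had the smallest p: it read 8.72 and 8.59 in knockout and 9.14 and 8.99 in wild type, a difference of -0.41 (95% interval -0.81 to -0.015; adjusted p = 0.801). Pole differed by 0.74 (95% interval -0.10 to 1.58; adjusted p = 0.801) and Tk1 by -0.30 (95% interval -0.68 to 0.069; adjusted p = 0.812). The intervals of Pole and Tk1 reach both sides of 0, and the missing calls do not show that the genotypes were alike.

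At day 0, by contrast, 21 of the 41 genes were lower in knockout than in the single wild-type array and 0 were higher, against 5.86% of all genes lower and 8.53% higher. The median difference was -1.10, and that of all genes -0.093. The wild-type day 0 array was above both knockout day 0 arrays for 39 of the 41 genes (all but Cdt1 and Mcm3) and for 51.6% of all genes. Tk1 was lower by a difference of -2.46 ± 0.19 (SE, 2 arrays against 1; limma adjusted p = 0.00104), Ccne1 by -2.70 ± 0.28 (adjusted p = 0.00270) and Prim1 by -1.98 ± 0.22 (adjusted p = 0.00335).

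By role, all 4 nucleotide supply genes, 4 of 5 clamp and clamp loader genes, 3 of 4 S phase entry genes, 3 of 5 helicase activation genes and 3 of 7 polymerase and primase genes were lower in knockout at day 0. The other groups had 1 call each, among them Mcm7 for the 6 ring subunits and Orc6 for the 4 licensing genes. Rfc4 gives an example of a gene at its highest in the wild-type day 0 array: 10.69 there, 8.24 and 8.23 in knockout at day 0, and 9.58 to 10.47 at day 6. The array was the highest of all 7 for Ccne2, E2f2, Orc6, Pcna, Prim1, Rfc4 and Tyms, 7 of the 41 genes, and for 20.3% of all genes. Without knockout day 0 replicate 1 fewer genes were called, among the 41 and over all genes, and the median difference of the 41 was -0.96. In the same comparison 20 of 21 hair matrix and shaft genes were lower in knockout, with a median difference of -6.48, and 3 of 9 fibroblast, 3 of 10 muscle and 4 of 14 keratinocyte genes were higher. Genotype, the Xist split and that 1 library cannot be told apart at day 0.

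**Figure D4:**
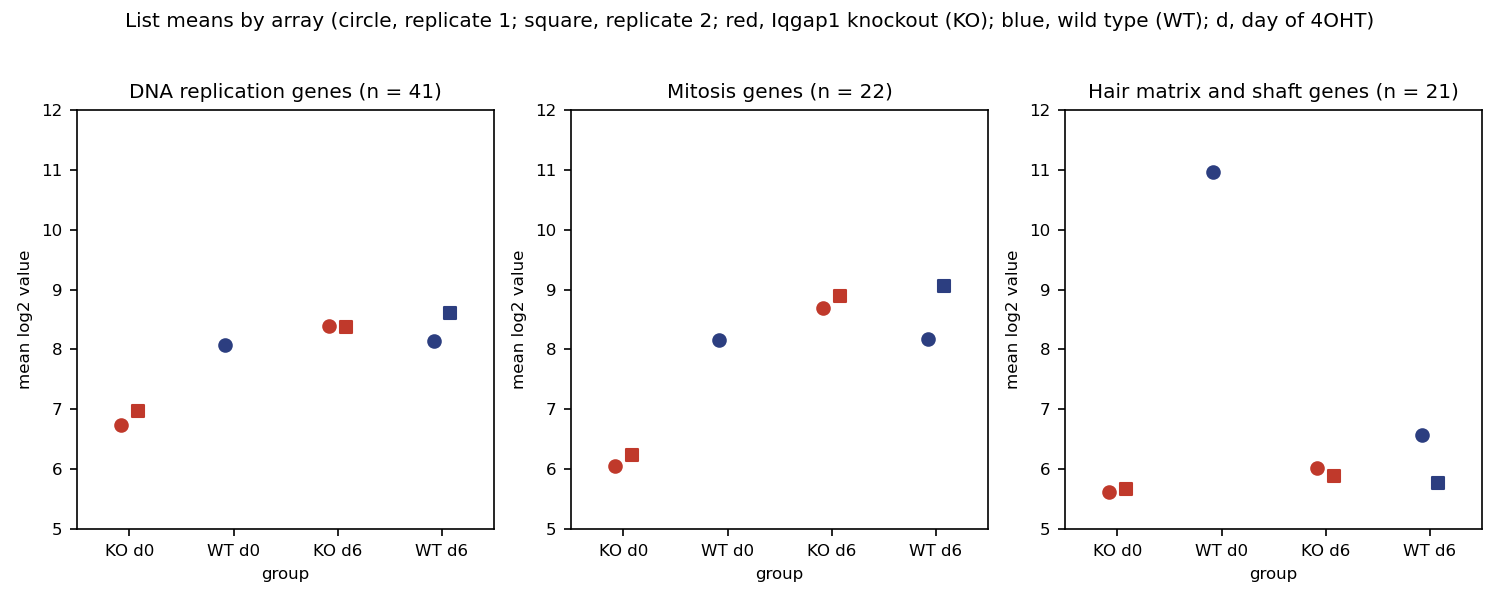
Mean log2 value (vertical axis, from 5 to 12) of the 41 replication genes, 22 mitosis genes and 21 hair matrix and shaft genes in each array, by group; circles are replicate 1, squares replicate 2, red knockout and blue wild type. The wild-type day 0 point is between the knockout day 0 and the day 6 points for replication (8.07) and mitosis genes (8.16) and far above every other point for hair genes (10.96).

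Over both genotypes, with genotype as a term in the fit, 12 of the 41 genes rose from day 0 to day 6 and 0 fell, against 5.85% of all genes that rose and 5.62% that fell. The median was 1.06 for the 41 genes and 0.055 for all genes. Orc1 had the smallest p, with a rise of 1.81 ± 0.28 (SE, 4 arrays against 3; limma adjusted p = 0.0110). Ccne1 rose by 2.03, Rrm2 by 1.95, Tk1 by 1.84, Mcm5 by 1.74, Mcm10 by 1.71, Chaf1b by 1.57, Gins1 by 1.51, Mcm4 by 1.40, Cdt1 by 1.24, Chaf1a by 1.18 and Prim2 by 1.11, with adjusted p from 0.0182 to 0.0491. This fit gives 1 day change shared by both genotypes, and none of the 12 genes was called in wild type alone. For Tk1, Ccne1 and Chaf1b the day change differed between the genotypes by limma. Their wild-type differences were 0.54, 0.49 and 0.43, beside 2.70, 3.06 and 2.34 in knockout. All 4 day 6 arrays lay above all 3 day 0 arrays for 20 of the 41 genes, and for 11.9% of all genes. With each array centred on its own median, 1575 of all genes rose and 973 fell, beside 1166 and 1120 without centring, and the count of replication genes that rose was 20.

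The count of the 41 genes, 12 with all arrays, depended on the arrays used. So did the share of all genes called in either direction, 11.5% with all arrays, but the 2 did not always move together. The count of the 41 was 21 without wild-type day 6 replicate 1, where 10.5% of all genes were called. It was 5 without replicate 2, where 9.43% were. Without the wild-type day 0 array no wild-type day contrast is left, and the fit returns the knockout change alone, with its 37 calls. It was 0 and 1 without knockout day 0 replicates 1 and 2, where 3.65% and 5.68% of all genes were called. Without either knockout day 6 array it was 1, beside 5.08% of all genes without replicate 1 and 4.26% without replicate 2.

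Other genes of the same processes, from lists that hold none of the 41, were counted in the same fits. Of 32 other fork and origin genes, 18 rose in knockout and 0 fell, where 7.24% and 9.07% of all genes did. In wild type 1 rose, near the 3.51% of all genes that rose there, so this call says little about the list. The medians were 0.89 in knockout and 0.13 in wild type. Donson, a fork protection protein, was the wild-type call, with 1.09 (limma adjusted p = 0.0410) beside 0.84 in knockout (adjusted p = 0.0284). Tipin and Timeless, partners that steady the fork, rose in knockout by 1.15 and 1.02, and Pold4, a small subunit of polymerase delta, by 1.31. At day 0, 6 of the 32 were lower in knockout, where 5.86% of all genes were. The difference in the day change was above 0 past the threshold for 2, beside 1.76% of all genes.

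Of 13 other nucleotide supply genes 2 rose in knockout, where 7.24% of all genes did, and 1 fell in wild type, where 3.61% did, so these few calls say little about the list. The wild-type call was Ctps, the CTP synthase, with -2.22 in wild type (adjusted p = 0.0111) and -0.39 in knockout (adjusted p = 0.408). Of 13 other chromatin copying genes 4 rose in knockout and 0 changed in wild type. The histone chaperone gene Asf1b rose by 2.79, the chromatin remodeller gene Hells by 1.94 and Cdca7 by 1.00 in knockout, while the maintenance methyltransferase gene Dnmt1 differed by 0.69 (adjusted p = 0.173).

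Of 26 G1/S control genes, 6 rose and 2 fell in knockout, beside 7.24% and 9.07% of all genes, and 3 rose and 1 fell in wild type, beside 3.51% and 3.61%. The falls were thus near the share over all genes. E2f7, a repressor of the E2F family, rose by 2.66 in knockout (adjusted p = 0.00889) and 2.43 in wild type (adjusted p = 0.0453), and Ccnd1, cyclin D1, by 0.76 and 1.36. Ccnd2, cyclin D2, fell by 1.38 in knockout and by 1.45 in wild type, and Myc fell by 0.68 in knockout.

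All 22 mitosis genes rose in knockout, with a median of 2.62, and 0 were called in wild type. There 2 had an unadjusted p under 0.05, beside 4064 of all 19937 genes. Cdc20, an activator of the anaphase-promoting complex, rose by 2.65 and Birc5, survivin, by 2.18 in knockout. The difference in the day change was above 0 past the threshold for 10 of the 22, beside 1.76% of all genes. At day 0, 12 were lower in knockout, beside 5.86% of all genes. At day 6 none of the fork, nucleotide, chromatin, G1/S and mitosis lists held a gene called between the genotypes by limma, and 0 of these genes had an unadjusted p under 0.05.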

How the data were processed

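RNA was measured on 7 arrays in 4 groups taken from the sample titles. Per the submitters' processing notes the authors' values came from RMA in R 2.11.1; the deposited values are log2 expression values, read as such from their range (2.371 to 13.377). RMA corrects background, quantile-normalizes and summarizes probes, so low values are compressed. Array batches and other settings are not given in the sources used here. The number of arrays limits the precision.

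Of 34760 probe sets, 21640 had 1 gene symbol, 1321 several and 11799 none. Taking for each gene the probe set that named it alone with the highest mean gave 19937 genes, of which 19855 matched RefSeq identifiers. Pcna and Tk1 had 2 such probe sets.

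Differences were tested two-sided with limma 3.58.1 in R 4.3.3 (lmFit, eBayes), and p-values of all 19937 genes were adjusted by Benjamini and Hochberg's method, calling those under 0.05. A model with genotype and day as additive terms, leaving 4 residual degrees of freedom, gave the day change over both genotypes. A model of the 4 group means, leaving 3, gave the other 5 comparisons, and there the lone wild-type day 0 array takes its error from the groups with 2 arrays. The procedure was tested on simulated data. Intervals are at 95%.

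The members and all lists were chosen with earlier results of these data known. Any of the 41 genes may be named. Single calls are given for the day change over both genotypes and in knockout, and elsewhere for the 3 genes with the smallest p. From each other list at most 4 genes are named, those with the smallest p over both genotypes. The genes that show a spread, an extreme value or a difference near 0, and the calls completing a count of 6, were added after their values were seen. Alternatives covered the filter, probe set choice, scaling, limma options, Xist arrays, replicate block and each array left out.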

Additional observations from a re-analysis of the deposited data

Results flagged for a closer look

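The day change differed between the genotypes, by limma's test of the knockout change minus the wild-type change, for 6 of the 41 replication genes: the log2 differences were 2.15 for Tk1, 2.57 for Ccne1, 1.89 for Prim1, 1.48 for E2f2, 1.39 for Rfc5 and 1.90 for Chaf1b. Their adjusted p were 0.00929, 0.0190, 0.0230, 0.0285, 0.0386 and 0.0412. Over the alternatives run, adjusted p ranged from 0.00475 to 0.0511 for Tk1, 0.00955 to 0.0751 for Ccne1, 0.0125 to 0.101 for Prim1, 0.0242 to 0.112 for E2f2, 0.0252 to 0.142 for Rfc5 and 0.0220 to 0.145 for Chaf1b, and none of the 6 kept its call in all 14 alternatives. Each difference rests on the single wild-type day 0 array, in which Prim1 and E2f2 were higher than in any other array.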

How the results depend on the processing

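Counts below are of the 41 replication genes called by limma. The share of all genes called moved with most settings too, so a move need not be particular to the 41 genes. Over both genotypes the count was 12 for day (11.5% of all genes). It was 19 with dim genes left out (20% of 12152 genes) and 20 with arrays centred on their medians (12.8%). A term for the arrays with Xist signal gave 5 (9.43%) and the replicate block 6 (8.75%). With 1 array left out at a time it was 0 to 37 (3.65% to 16.3%). The 37, without the wild-type day 0 array, and the 38 without the Xist arrays are counts of the knockout change alone, since no wild-type day contrast is left. In knockout (37) it was 16 to 38 with 1 array left out, and 16 of the 37 genes, among them Ccne1, Tk1, Rrm2, Mcm5 and Orc1, were called in every alternative. In wild type (1) it was 2 with centring, 2 with only the arrays of the comparison and 1 to 10 with 1 array left out; E2f2 was called in every alternative. At day 0 (21) it was 13 with the term for Xist arrays and 12 to 28 with 1 array left out. For the difference in the day change (6) it was 3 with all probe sets tested, 11 with centring, 11 with the Xist term, 12 with the replicate block and 0 to 11 with 1 array left out. At day 6 it was 0 in each alternative. The cause of these moves was not tested, beyond fewer arrays or more features tested. Centring shifted the knockout change of all genes by 0.11 and the day 0 difference by -0.10. Signs turned for uncalled values only. Over both genotypes Pcna was -0.16 and E2f2 -0.32; without the Xist arrays the fit gives their knockout values, 0.090 and 0.27, which is no turn of the estimate over both genotypes. With 1 array left out, the upper ends again being the knockout values, Pcna ran from -0.40 to 0.090, E2f2 from -0.49 to 0.27 and Orc6 from -0.0087 to 0.68, and in knockout Pcna ran from -0.27 to 0.45. Whether replicate numbers pair the samples is not stated. Deviations of same-numbered arrays correlated at 0.086 for knockout days 0 and 6, 0.037 for knockout day 0 with wild-type day 6, and 0.227 for both at day 6. With 2 arrays in a group these values cannot decide it. The block moved the count of calls over both genotypes from 12 to 6 and of the difference in the day change from 6 to 12. Leaving out the wild-type day 0 array, or the Xist arrays, left no value for the wild-type day change, day 0 and the difference in the day change. Signal over background limits dim genes, whose changes RMA compresses.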
